A study of Homo sapiens with 6 samples.

Results

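The genes that encode the subunits of the proteasome were followed through 6 libraries of a ribosome profiling experiment in HEK293T cells. They were the protein-coding genes whose symbol is PSMA, PSMB, PSMC, PSMD or PSME followed by digits, which gave 43 of the 60420 genes in the deposited table. HEK293T cells descend from human embryonic kidney and express the large T antigen of SV40. One group of cells received the vehicle DMSO, one an inhibitor of the arginine methyltransferase PRMT1 and one an inhibitor of PRMT4, also called CARM1; the labels give no compound, dose or time. Each treatment was represented by 1 input library, read here as the RNA level, and by 1 library of ribosome-protected fragments, called footprints. The labels describe the RNA of every library, inputs included, as protected by ribosomes. There were no replicates, so no difference below has an error or a test, and each describes these libraries only. Values are TPM, a transcript abundance scaled to library total and gene length, and 3 values in a row stand for DMSO, PRMT1 inhibitor and PRMT4 inhibitor in that order.

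The proteasome degrades proteins that carry chains of ubiquitin. Its core particle is a stack of rings: outer alpha rings, which gate the entrance, and inner beta rings, which hold the proteolytic sites facing the chamber. A regulatory particle caps the core. Its base contains a ring of ATPases that unfold substrates and thread them inward, and its lid contains the deubiquitinase that removes the chain. Alternative activators can dock on the core in place of that cap. Because the particle needs its subunits in fixed proportion, their genes are usually expressed together, and the transcription factor NRF1 (gene NFE2L1) raises them when proteasome activity is short.

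The libraries carried a limit that touches every statement about translation efficiency, here the ratio of a footprint library to the input library with its label. Across 8117 protein-coding genes, the difference between both inhibitor labels in input and the same difference in footprints, neither of which uses a DMSO library, were inversely related (Pearson r = -0.42, Spearman rho = -0.41; genes are not independent and share the same 4 libraries), and 64.1% of the genes had opposite signs. The footprint library of an inhibitor thus went against the input library of the same label. Among the 38 subunit genes compared below, 18 had opposite signs. Whether labels were exchanged between the inhibitors in one layer was not tested, and in that case a translation efficiency by label would set libraries of different treatments against each other. HMOX1, a heme oxygenase gene, was for instance highest in the input of the PRMT4 label and in the footprints of the PRMT1 label. Libraries are named by their labels, and values that pool both inhibitor labels are given beside those that use them. Among 5 markers chosen for HEK293T, vimentin was at 104 TPM or more in every library, whereas PAX2, NEFM and CDH2 were at 1.97 TPM or less and NEFL was between 1.5 and 7 TPM. Of 6 markers of other cell types, 5 were found, and none of them was above 0.08 TPM. In a bulk lysate, fewer cells with a transcript and less transcript per cell cannot be told apart.

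Of the 43 genes, 38 had a mean of at least 5 TPM over the 6 libraries and entered the comparisons. This held for all 7 alpha-ring genes (PSMA1 to PSMA7), all 7 constitutive beta-ring genes (PSMB1 to PSMB7), all 6 base ATPases (PSMC1 to PSMC6), the 3 other base subunits (PSMD1, PSMD2 and PSMD4), all 8 lid genes (PSMD3, PSMD6, PSMD7, PSMD8, PSMD11, PSMD12, PSMD13 and PSMD14) and the 4 activators (PSME1 to PSME4). Of the 3 base assembly chaperones that carry a PSMD symbol, PSMD9 and PSMD10 passed and PSMD5 did not. Of the 5 tissue- or cytokine-specific core genes, PSMB10 alone passed. The other 4 were at or near 0: PSMA8, the testis alpha subunit, was listed at 0 in every library, and PSMB11, the thymus beta subunit, was at 0.01 TPM at most.

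**Figure D1:**
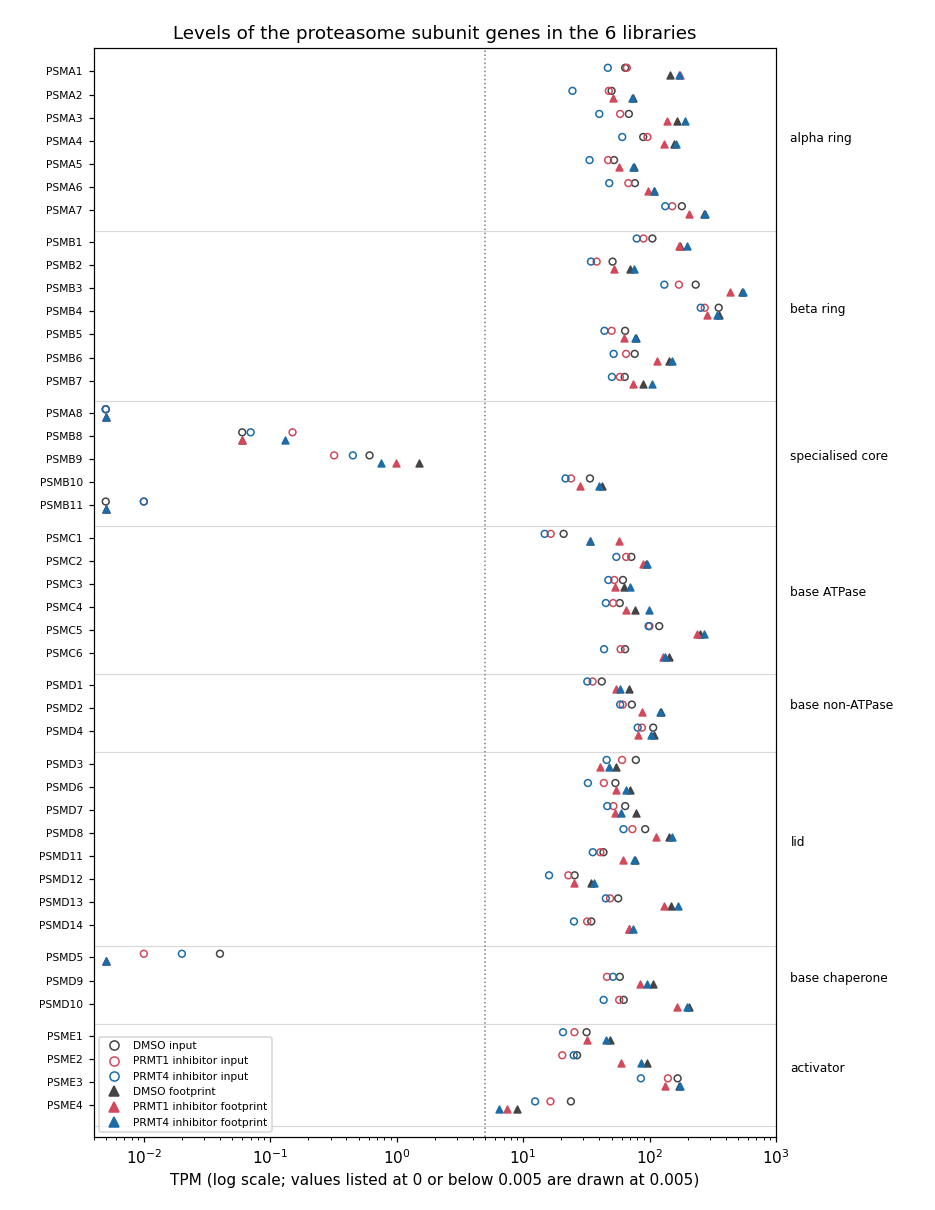
TPM of each of the 43 genes on a log axis, one row per gene and grouped by role, with open circles for input and filled triangles for footprints, coloured by label; the dotted line marks 5 TPM. The 38 genes compared lie between 6.40 and 547 TPM, and PSMA8, PSMB8, PSMB9, PSMB11 and PSMD5 lie left of the line.

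PSMD5, which encodes a chaperone of base assembly, was listed at 0.04, 0.01 and 0.02 TPM in the inputs and 0 in all 3 footprint libraries. The other chaperones of this step were well above the filter, PSMD9 at a mean of 73.8 TPM and PSMD10, also called gankyrin, at a mean of 122 TPM. The table gives no counts, so the value of PSMD5 is reported only as listed.

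The inducible counterparts of the catalytic subunits separated into 1 gene with a clear level and 2 near the floor. PSMB8, which replaces PSMB5 in the immunoproteasome of cytokine-treated and immune cells, was between 0.06 and 0.15 TPM in all 6 libraries. PSMB9, which replaces PSMB6, was at 0.61, 0.32 and 0.45 TPM in the inputs and 1.49, 0.98 and 0.75 TPM in the footprints. PSMB10 (ENSG00000205220.11_3), which replaces PSMB7, was at 33.8, 23.9 and 21.6 TPM in the inputs and 41.9, 27.9 and 39.7 TPM in the footprints. All of these libraries therefore held PSMB10 without a comparable level of its partners PSMB8 and PSMB9. PSMB10 was higher in DMSO than under either inhibitor label in both layers. Of all genes with a mean of at least 5 TPM, 78.0% and 85.7% were below DMSO in the inputs of the PRMT1 and PRMT4 labels. In the footprints 65.2% and 51.0% were. Of the coding windows of PSMB10 of 30 bases, 54.9% also occur in another annotated locus, ENSG00000261884, so reads could be divided between them. That locus was between 0.45 and 3.91 TPM.

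How far each subunit could be told from its copies was read from GENCODE release 29 transcripts. The coding sequences of 22 of the 43 genes shared at least 1 window of 30 bases, about the length of a footprint, with the transcript of another gene on the same strand. The share was 100% for PSMC1 and PSMA2, 90.8% for PSMA6, 85.0% for PSMA1, 61.9% for PSMC6, 54.9% for PSMB10, 54.4% for PSMD9 and 48.0% for PSME2. It was 0 for 21 genes. Of the 38 genes compared, 24 had a share of 10% or less.

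PSMC1, an ATPase of the base, has a nearly identical copy. Its processed pseudogene PSMC1P1 differs from the PSMC1 coding sequence at 1 of 1320 positions, the substitution T885A, counted from 1 at the start codon (first base PSMC1, last base PSMC1P1). The sequences around it are shown because a footprint can be assigned to one of the pair only where it covers this base, which is in capitals.
PSMC1: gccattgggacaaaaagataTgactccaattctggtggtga
PSMC1P1: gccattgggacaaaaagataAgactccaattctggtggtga

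PSMC1 (ENSG00000100764.13_3) was at 20.9, 16.5 and 14.8 TPM in the inputs and 33.9, 57.1 and 33.7 TPM in the footprints. PSMC1P1 was at 23.3, 23.4 and 22.1 TPM in the inputs and 34.5, 19.7 and 29.6 TPM in the footprints. The 1 library in which PSMC1 was high was thus the library in which PSMC1P1 was low. Added together, the pair came to 68.3, 76.9 and 63.3 TPM in the footprints, and PSMC1 held 49.5%, 74.3% and 53.2% of that sum. Its centred log2 footprint ratio for the PRMT1 label was 0.88 alone and 0.31 for the sum, and its translation efficiency ratio was 1.04 alone and 0.30 for the sum. A shorter pseudogene, PSMC1P5, is identical to PSMC1 over 175 bases and was at 93.8, 75.3 and 104 TPM in the inputs and 15.8, 20.9 and 11.6 TPM in the footprints. With all 3 pseudogene copies added, the translation efficiency ratio was 0.46 for the PRMT1 label and -0.57 for the PRMT4 label (0.09 alone), and translation efficiency in DMSO was -0.79 (0.58 alone). The input ratio for the PRMT4 label was -0.11 alone, 0.11 with PSMC1P1 added and 0.40 with all 3 copies. For the PRMT1 label it was -0.16, 0.01 and -0.10. The PSMC1P5 transcript has 177 bases, that of PSMC1P1 1320 and that of PSMC1 4448. TPM is scaled to length, so the TPM of a copy is not what its reads would add to PSMC1. Values of PSMC1 alone are uncertain in size. In input, and in translation efficiency under the PRMT4 label, they are also uncertain in direction, since their sign changed with PSMC1P1 added. In DMSO, translation efficiency changed sign only in the sum that holds PSMC1P5. The pair of PSMC1 and PSMC1P1 was at 44.2 TPM in DMSO input and 68.3 TPM in DMSO footprints. The plot shows PSMC1 and PSMC1P1 in TPM. Whether reads were exchanged between them was not tested.

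**Figure D2:**
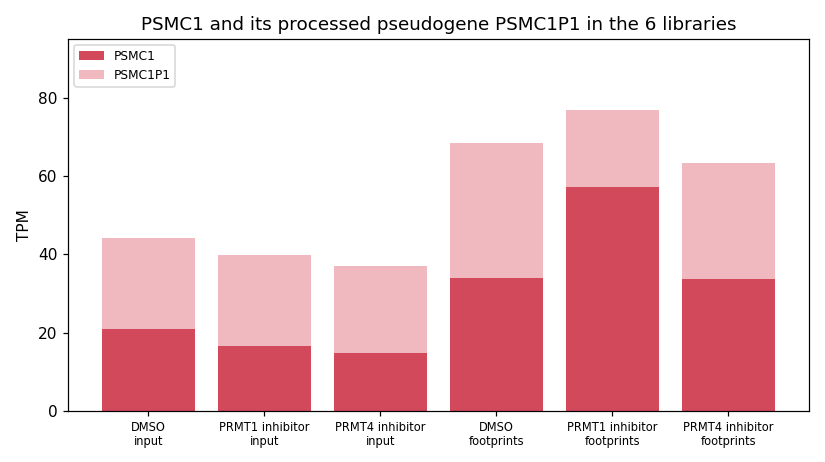
Stacked bars of PSMC1 (dark) and its processed pseudogene PSMC1P1 (light) in TPM for each of the 6 libraries, 1 library per bar. In footprints labelled PRMT1 inhibitor PSMC1 holds 74.3% of the sum, against 49.5% in DMSO footprints, while the sums are 76.9 and 68.3 TPM.

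In DMSO the subunits of the constitutive core ranged from 50.0 to 352 TPM as input and from 69.7 to 536 TPM as footprints. Within the core, the beta-ring genes were the more unequal in TPM, with an SD of log2(TPM + 1) in DMSO footprints of 1.12 against 0.67 for the alpha ring, but hardly so per coding length (0.96 and 0.94). That scale rests on 1 annotated transcript per gene, the longest of those with the longest coding sequence. For PSMA4 it has 4411 bases, of which 783 are coding, which turns 155 TPM in DMSO footprints into 875. The value per coding length thus depends on the transcript chosen. PSMB3 (ENSG00000277791.4_2) and PSMB4 (ENSG00000159377.10_2) stood above the rest. PSMB3 was at 231, 170.4 and 131 TPM in the inputs and 536, 432 and 547 TPM in the footprints. PSMB4 was at 352, 273 and 254 TPM and at 351, 282 and 343 TPM. PSMB3 therefore had the higher footprint level of this pair and PSMB4 the higher input level, in every treatment.

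In DMSO the core, base and lid genes did not lie closer together in footprints than in input on the TPM scale. The SD of log2(TPM + 1) over the 14 constitutive core genes was 0.86 in DMSO input and 0.90 in DMSO footprints. It was 0.72 and 0.81 over the 9 base genes and 0.60 and 0.68 over the 8 lid genes. Expressing footprints per coding length gave 0.92, 0.75 and 0.65 for these groups. The order was not the same in every treatment. In TPM the base genes, which include PSMC1, had an SD of 0.74 in input and 0.69 in footprints of the PRMT1 label. The core genes had 0.905 and 0.895 under the PRMT4 label. Per coding length these footprint values were 0.84 for the base and 0.901 for the core. Under the PRMT4 label the base had 0.77 in input and 0.75 in footprints per coding length. Complexes related to the lid or similar in size had SDs of 0.51 and 0.92 (COP9 signalosome, 9 genes) and 0.55 and 0.70 (the chaperonin CCT, 8 genes), and the initiation factor eIF3, with 13 genes, had 1.15 in input. The level of a subunit in DMSO input was related to its level in DMSO footprints (Pearson r = 0.83, Spearman rho = 0.80 over 38 genes), as a description across genes that also share length scaling.

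Translation efficiency in DMSO was above that of the median tested gene for 32 of the 38 subunits, against 50% of all 9040 tested genes by construction, and the median centred log2 ratio was 0.51. Among 3606 protein-coding genes with a mean of at least 20 TPM, 68.8% were above 0 and the median was 0.43, so abundant genes shared most of this position. The value depended on the scale: it was 0.10, with 23 of 37 above 0, against genes of at least 20 TPM, 0.26 with footprints per coding length and -0.10, against -0.59 for all tested genes, after rescaling each library to its protein-coding total. At or above a log2 ratio of 0.32, the threshold used throughout for a called difference, were 25 subunits, and 2, PSME4 and PSMD3, were as far below 0, against backgrounds of 37.2% and 38.1%.

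**Figure D3:**
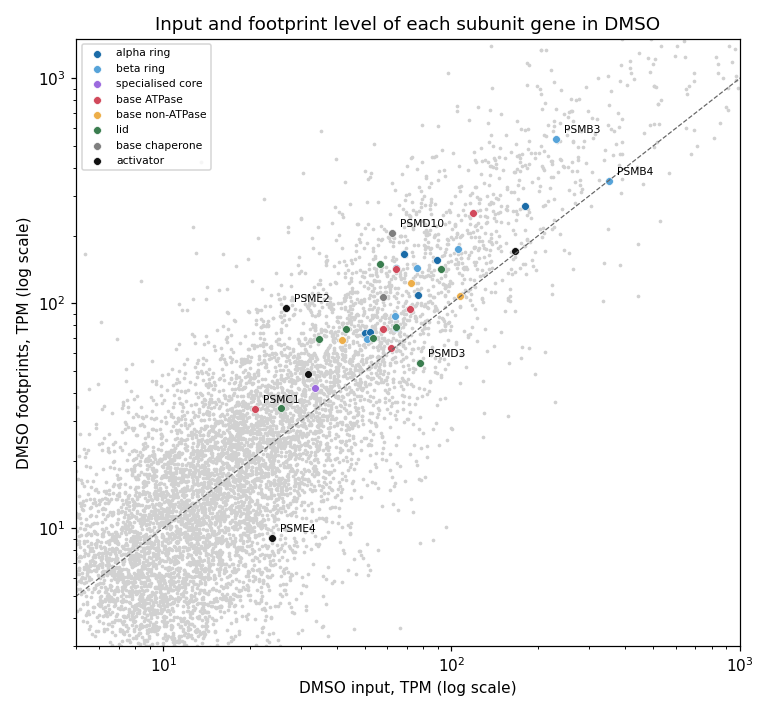
DMSO input (x, TPM, log axis) against DMSO footprints (y, TPM, log axis) for the 38 subunit genes, coloured by role, over all tested protein-coding genes in the plotted range in grey; the dashed line marks equal TPM. PSME2 and PSMD10 lie above most subunits of their input level, and PSME4 and PSMD3 lie below the line.

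The ends of this range were held by activators, a chaperone and a lid gene. PSME2 (ENSG00000100911.15_3), a subunit of the interferon-inducible activator ring, was at 26.7 TPM in DMSO input and 95.5 TPM in DMSO footprints (1.72), although 48.0% of its coding windows also occur in other loci, of which its 3 closest pseudogenes were at 0.32 TPM or less. PSMD10 (ENSG00000101843.18_2) was at 62.4 and 205 TPM (1.61), with 32.2% of windows shared. At the low end PSME4 (ENSG00000068878.14_2), the large single-chain activator, was at 23.9 and 9.02 TPM (-1.40), and PSMD3 (ENSG00000108344.14_2), a scaffold subunit of the lid, was at 77.8 and 54.4 TPM (-0.60). PSMD3 was at 60.5 and 45.7 TPM in the inputs of the PRMT1 and PRMT4 labels and at 40.2 and 48.1 TPM in their footprints. PSME4 and PSMD3 shared no coding window with another gene. PSME4 and PSMD3 were also the 2 lowest under both inhibitor labels, whereas the top of the order changed: PSMC1 was highest under the PRMT1 label (1.62) and PSMA3 under the PRMT4 label (1.77), where PSME2 stood at 1.26. Under these labels footprint TPM over input TPM was 2.93 and 3.39 for PSME2 and 2.86 and 4.56 for PSMD10, against 0.664 and 1.05 for PSMD3 and 0.455 and 0.515 for PSME4.

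Both inhibitor labels are compared below with the same DMSO libraries, so their ratios share a control. Ratios are log2((TPM + 1) / (TPM + 1)) centred on the median tested gene, and a pseudocount of 1 understates changes of low genes. Before centring that median was -0.16 and -0.37 for the inputs of the PRMT1 and PRMT4 labels and -0.15 and -0.01 for the footprints, and for translation efficiency it was 0.02 and 0.37.

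In the input labelled PRMT1 inhibitor the subunits stayed close to the median gene. The median over 38 subunits was -0.08, with 27 below 0 against a background of 50%, and 1 of 38 was called against 14.3% of all tested genes. Abundant protein-coding genes stood in the same place, with a median of -0.06, 62.6% below 0 and 11.6% called. By role, the medians were 0.01 for the alpha ring, -0.19 for the constitutive beta ring, -0.04 for the base ATPases, -0.09 for the lid and -0.18 for the activators.

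In this library 4 of 7 alpha genes and 1 of 7 beta genes were above 0, and the ranges of both rings overlapped. PSMA4 (ENSG00000041357.15_2) was at 89.0 TPM in DMSO input and 96.1 TPM here (0.27), and PSMA1 (ENSG00000129084.17_3) at 64.1 and 66.1 TPM (0.20). The lowest were PSME4, at 23.9 and 16.4 TPM (-0.35), and PSMB10 at -0.32. PSME4 was the gene called.

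In the input labelled PRMT4 inhibitor most subunits stood below the median gene, as did most abundant genes. The median over the 38 genes was -0.13, 30 were below 0 (background 50%), and 7 were called, all lower, against 32.3% of tested genes in either direction and 15.1% in the lower one. Abundant protein-coding genes had a median of -0.11, with 65.4% below 0 and 29.8% called. All 7 alpha-ring genes were below 0, with a median of -0.26, as were 6 of 7 constitutive beta-ring genes, with a median of -0.17. The base stood nearer the centre, at -0.02 for the ATPases and -0.01 for the other base subunits, and the lid had a median of -0.15. The activators had the lowest median of the roles with more than 1 gene, -0.38, with 3 of 4 below 0 and 2 called. Against genes of at least 20 TPM the median over 37 subunits was -0.015, with 21 below 0. On the protein-coding scale 6 of the alpha-ring genes stayed below 0 (median -0.19), and with the minimum of 20 TPM 5 of them did (-0.17).

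PSMA2 (ENSG00000106588.10_3) had the lowest ratio, at 50.0, 47.6 and 24.5 TPM in the inputs and 74.0, 51.7 and 72.4 TPM in the footprints. The input labelled PRMT4 inhibitor was low against both other inputs (-0.63 relative to DMSO), whereas its footprints were close to those of DMSO (-0.02). All coding windows of PSMA2 also occur in the overlapping locus ENSG00000256646, which was at 5.77, 5.01 and 5.43 TPM in the inputs, and the ratio of their sum was -0.51. PSMA3 (ENSG00000100567.12_3), another gene of the alpha ring, with 0.408% of windows shared, was at 68.5, 58.5 and 40.0 TPM in the inputs and 165, 138 and 192 TPM in the footprints. It was also low in the input of the PRMT4 label (-0.40), and its footprints of that label were above DMSO (0.22).

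The remaining 5 genes called in this input were PSMB3, PSMD3, PSMD6, PSME3 and PSME4. PSME3 (ENSG00000131467.10_2), the nuclear activator, was at 167, 139.5 and 85.3 TPM in the inputs and 170.2, 132 and 174 TPM in the footprints, with an input ratio of -0.59. Among the activators PSME2 went the other way, with the highest ratio of all subunits (0.28, but -0.085 without centring and -0.057 with no filter on low values) at 26.7, 20.4 and 25.1 TPM. PSMD9 (ENSG00000110801.13_3) was next at 58.1, 46.0 and 51.3 TPM (0.19, but -0.18 without centring and -0.15 with no filter). Of its coding windows, 54.4% also occur in the locus ENSG00000256950, which was at 4.12, 2.68 and 2.6 TPM in the inputs.

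In footprints labelled PRMT1 inhibitor most subunits stood lower. The median was -0.17, 32 of 38 were below 0 (background 50%), and 8 were called against 37.6% of tested genes. The 6 called lower were PSMA2, PSMB10, PSMD2, PSMD7, PSME1 and PSME2. Abundant protein-coding genes had a median of -0.11, 64.5% of them below 0 and 31.4% called. Medians by role were -0.12 for the alpha ring, -0.17 for the beta ring, 0.02 for the base ATPases, -0.25 for the other base subunits, -0.20 for the lid and -0.33 for the activators. The ATPases include PSMC1, at 0.88 alone and 0.31 for the sum with PSMC1P1. The other ATPases lay between -0.09 (PSMC4) and 0.06 (PSMC2). Without the genes that share over 10% of their coding windows, 21 of 24 were below 0, with a median of -0.16 and 2 called. After rescaling to the protein-coding total the median of the 38 was -0.064, with 26 below 0, against 0.09 for all tested genes.

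The activators PSME2 and PSME1 were the lowest subunits in that library, whereas PSME4 stood above the subunit median of -0.17. PSME2 was at 95.5, 59.7 and 85.1 TPM in the footprints, a ratio of -0.52 for the PRMT1 label. PSME1 (ENSG00000092010.14_2), its partner in the same ring, was at 31.7, 25.4 and 20.7 TPM in the inputs and 48.6, 31.8 and 45.6 TPM in the footprints (-0.45). PSME3 had a footprint ratio of -0.22 and PSME4, at 9.02, 7.48 and 6.40 TPM in the footprints, one of -0.10. All 4 were thus below DMSO in this library, as they were with a smaller pseudocount. After rescaling to the protein-coding total all 4 were below 0, as were 26 of the 38 subunits and 39.3% of tested genes. A minimum of 20 TPM left out PSME4 and kept the other 3 below 0. Leaving out the filter or the centring lowers every ratio of this comparison, so no ratio below 0 could change sign. Without centring, 36 of 38 subunits and 65.2% of tested genes were below 0.

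Only 6 subunits had ratios above 0. PSMC1 (0.88) has been described with its pseudogene. PSMA1, at 144, 175 and 171 TPM in the footprints, was at 0.42 for the PRMT1 label and 0.25 for the PRMT4 label. It shares 85.0% of its windows with the overlapping locus ENSG00000256206, which was at 16.6, 14.9 and 20.5 TPM there, and the sum of both had ratios of 0.38 and 0.25. PSMD14 (ENSG00000115233.11_3), the deubiquitinase of the lid, was at 34.6, 32.1 and 25.2 TPM in the inputs and 69.1, 68.4 and 74.3 TPM in the footprints, with a ratio of 0.13. The other 3 were PSMB1 (0.12), PSMC2 (0.06) and PSMC5 (0.06).

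The constitutive catalytic subunits stayed near the centre. PSMB5 (ENSG00000100804.18_3), the chymotrypsin-like site, was at 64.0, 50.1 and 44.0 TPM in the inputs and 78.0, 63.2 and 76.0 TPM in the footprints. PSMB6 (ENSG00000142507.9_2), the caspase-like site, was at 76.2, 65.1 and 51.9 TPM and at 144, 115 and 149.8 TPM. PSMB7 (ENSG00000136930.12_2), the trypsin-like site, was at 63.6, 58.2 and 50.4 TPM and at 88.3, 74.4 and 104 TPM. In TPM each of the 3 was highest in the DMSO input and lowest in the input labelled PRMT4 inhibitor, and in footprints lowest under the PRMT1 label. Most tested genes shared these directions. Without centring, 78.0% and 85.7% of them were below DMSO in the inputs of the PRMT1 and PRMT4 labels. In footprints of the PRMT1 label 65.2% were. After centring, the footprint ratios of PSMB5, PSMB6 and PSMB7 were -0.15, -0.18 and -0.10 for the PRMT1 label and -0.03, 0.07 and 0.24 for the PRMT4 label.

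Footprints labelled PRMT4 inhibitor had the subunit median nearest to DMSO, although fewer subunits were called in the input of the PRMT1 label. The median was 0.00, with 19 of 38 below 0 (background 50%), and 3 were called, against 20.4% of tested genes and 13.8% of abundant protein-coding genes, of which 55.1% were below 0. The 3 were PSMC4, PSMD7 and PSME4. PSMC4 (ENSG00000013275.7_2), a base ATPase, was at 77.0, 65.2 and 98.5 TPM in the footprints (0.36). PSMD7 (ENSG00000103035.10_2), the lid partner of PSMD14, was at 78.4, 53.4 and 59.8 TPM (-0.38), low under both labels. PSME4 stood at -0.43.

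Set directly against each other, the inhibitor labels differed in footprints: 31 of 38 subunits were lower under the PRMT1 label than under the PRMT4 label (background 50%), with a median of -0.17 against -0.08 for abundant protein-coding genes, and 11 were called against 31.1% of tested genes. All 7 constitutive beta-ring genes and 6 of 7 alpha-ring genes were on the lower side. In input 21 of 38 were higher under the PRMT1 label (background 50%), with a median of 0.03, and 6 were called against 31.4%. The alpha ring had a median of 0.30 there, and the beta ring one of 0.00.

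**Figure D4:**
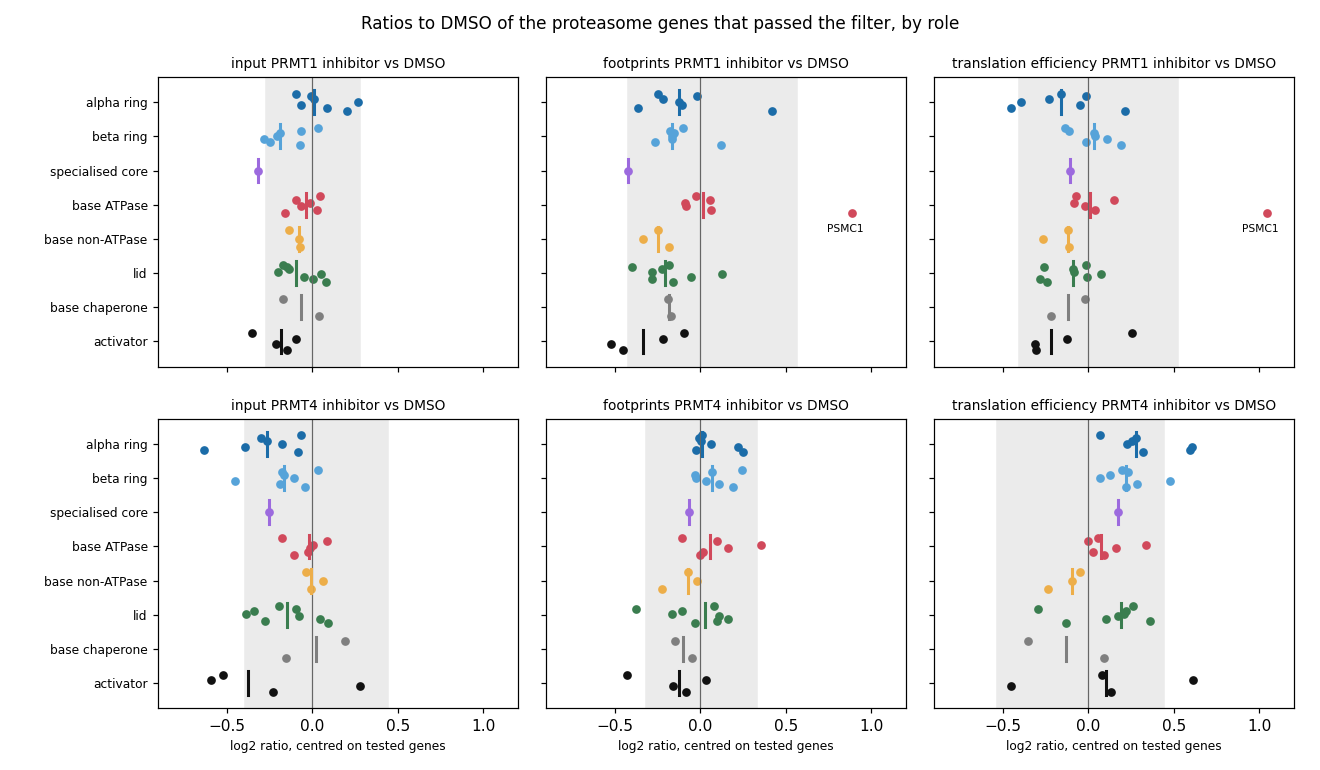
Centred log2 ratios to DMSO of the 38 subunit genes, 1 dot per gene by role, with a vertical bar at each role's median; the grey band spans the percentiles 10 to 90 of all 9040 tested genes and columns show input, footprints and translation efficiency. Between 33 and 36 of the 38 subunits lie inside the band, PSMC1 stands apart in footprints and translation efficiency of the PRMT1 label, and both core rings lie right of 0 in translation efficiency of the PRMT4 label.

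Translation efficiency by label followed from these layers and from the pairing of libraries. For the PRMT1 label the median was -0.09, 28 of 38 were below 0 (background 50%) and 3 were called against 35%. PSMA2 (-0.45) and PSMA4 (-0.39) were lowest, and PSMC1 (1.04) and PSME4 (0.25) highest. For the PRMT4 label the median was 0.17, 30 of 38 were above 0 (background 50%) and 8 were called against 37.3%. Abundant protein-coding genes had medians of -0.06 and 0.08 for these labels, with 57.7% below 0 for the first and 59.3% above 0 for the second.

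All 14 constitutive core genes were above 0 under the PRMT4 label, with a median of 0.24. With a minimum of 20 TPM, 12 of 14 were (median 0.17). This was not particular to the core. Every CCT gene except CCT3 (-0.01) was above 0 too. So was every COP9 signalosome gene except COPS6 (-0.36), COPS7A (-0.23) and GPS1 (-0.28), and the eIF3 genes lay on both sides. The 3 base subunits that are not ATPases were all below 0, with a median of -0.10. PSME3 (0.61), PSMA3 (0.61) and PSMA2 (0.60) were highest, and PSME2 (-0.45) and PSMD9 (-0.35, or 0.018 without centring) lowest. The median ratio of the core was 0.05 in the footprints of that label and -0.18 in its input. With both inhibitor labels pooled, which leaves their pairing out, the median translation efficiency of the 38 genes was 0.05, with 26 above 0 (background 50%), and that of the core 0.07, with 12 of 14 above 0. The pooled medians for the 38 genes were -0.10 in input, with 32 below 0, and -0.09 in footprints, with 27 below 0.

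With every library rescaled to its protein-coding total, the 43 genes together came to 6553, 6483 and 6201 TPM as input and 6393, 6339 and 6857 TPM as footprints. The summed message of the proteasome was thus lowest in the input and highest in the footprints of the PRMT4 label. The alpha ring came to 1271, 1379.8 and 1156 TPM as input and 1338, 1371 and 1489 TPM as footprints. The activators came to 545, 521 and 429 TPM as input and 435, 371 and 439.8 TPM as footprints, so their lowest sums were in different labels in the 2 layers.

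Promoters were searched for letters bound by the NRF family, TGACNNNGC on either strand, in the 250 bases before each RefSeq start (GRCh38.p14). Entries existed for 38 of the 43 genes, and 11 of these (28.9%) held the motif, against 14.7% of 15842 protein-coding genes and 16.2% of 6728 tested ones. The letters CCAAT, bound by NF-Y, occurred in 18 (47.4%), against 40.2% and 43.8%. A match is a description of letters and not a bound site. The windows below belong to 5 compared genes with 1 listed start and 1 match, chosen after their values were seen because they hold 3 of the 4 activators, the lid gene of lowest translation efficiency and the beta gene with the most footprints; each runs 5′ to 3′ on the strand of the gene, with the match in capitals (in PSME4 it lies on the opposite strand).
PSMB3, chr17:38752617-38752665, plus strand: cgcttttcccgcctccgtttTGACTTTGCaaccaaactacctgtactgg
PSMD3, chr17:39980750-39980798, plus strand: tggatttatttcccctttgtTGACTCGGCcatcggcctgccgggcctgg
PSME1, chr14:24136088-24136136, plus strand: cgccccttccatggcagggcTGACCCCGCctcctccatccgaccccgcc
PSME2, chr14:24146757-24146805, minus strand: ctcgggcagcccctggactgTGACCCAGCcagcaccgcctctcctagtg
PSME4, chr2:53970999-53971047, minus strand: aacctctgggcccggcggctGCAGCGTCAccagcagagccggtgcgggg

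In ratios to DMSO the 9 compared genes with the motif did not stand higher than the 24 without it. For the PRMT1 label their medians were -0.17 and -0.07 as input and -0.19 and -0.16 as footprints. For the PRMT4 label they were -0.23 and -0.13 as input and -0.09 and -0.003 as footprints. In the same libraries HMOX1, the heme oxygenase induced through the related factor NRF2, was at 7.53, 21.6 and 156.5 TPM in the inputs and 33.0, 642 and 93.9 TPM in the footprints. What set the levels of HMOX1 or of the subunit genes was not tested.

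Genes that assemble, regulate or feed the proteasome were taken from a list of 36, of which 35 passed the filter. Called higher and lower were 2 and 1 in input for the PRMT1 label, 5 and 3 in input for the PRMT4 label, 7 and 6 in footprints for the PRMT1 label and 3 and 2 in footprints for the PRMT4 label. The backgrounds were 7.54% and 6.74%, 17.2% and 15.1%, 21.3% and 16.3%, and 10.7% and 9.72%. In translation efficiency they were 8 and 6 for the PRMT1 label, against 19.5% and 15.5%, and 7 and 8 for the PRMT4 label, against 17.1% and 20.2%. UBA1, the main enzyme that activates ubiquitin, was lowest in 3 of these 4 comparisons, at 78.0, 54.5 and 45.8 TPM in the inputs and 87.7, 38.2 and 54.0 TPM in the footprints. Its footprint ratios were -1.03 and -0.68. SQSTM1, a ubiquitin-binding autophagy receptor, was at 50.1, 56.5 and 67.7 TPM in the inputs and 77.3, 111 and 101 TPM in the footprints, higher than DMSO in all 4 inhibitor libraries.

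Among transcriptional regulators, NFE2L1, which encodes NRF1, was at 13.5, 13.1 and 17.0 TPM in the inputs and 18.7, 17.9 and 20.6 TPM in the footprints. Its input ratio for the PRMT4 label was 0.68 and its footprint ratio 0.14. The protease DDI2, which processes NRF1, stood at -0.17 and -0.13 in input and -0.39 and -0.26 in footprints.

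Of the core assembly factors, PSMG1 was at 66.5, 62.5 and 29.8 TPM in the inputs and 44.7, 33.6 and 49.5 TPM in the footprints, with its lowest input under the PRMT4 label and its lowest footprints under the PRMT1 label, as PSMA2. PSMG4, another chaperone of alpha-ring assembly, was at 49.1, 25.2 and 44.9 TPM in the footprints (-0.79 for the PRMT1 label). The partners of base and lid that carry no PSM symbol, ADRM1, SEM1 and PAAF1, were above 0 in footprints for both labels, with medians of 0.33 and 0.31. SEM1, the smallest lid subunit, was at 465, 529 and 573 TPM there.

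The complexes used for comparison gave values on both sides of these. In footprints labelled PRMT1 inhibitor the medians were -0.14 for the COP9 signalosome, whose architecture resembles the lid, -0.19 for eIF3 and -0.29 for CCT. In the input labelled PRMT4 inhibitor they were -0.20, -0.06 and -0.34. The subunit medians of -0.17 and -0.13 lay within the range of these complexes, and no difference between complexes was tested.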

How the data were processed

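The table deposited by the authors held TPM, with 1 column for each of 6 libraries. The submitters' processing notes list RSEM 1.2.22, STAR 2.4.2a, Bowtie 1.1.2, cutadapt 1.18 and the build GRCh37.p13, without roles. TPM keeps no depth, so depth is unknown, no counting interval could be given, and precision is limited by 1 library per group. From 60461 rows, 41 pseudoautosomal copies, all at 0, were dropped. Of the identifiers, 40478 matched a symbol, and 56157 had a type in the annotation of GENCODE release 29, which is on a later build and gave no coordinates. Genes with a mean of at least 5 TPM, 9040 in all (8117 protein-coding), were compared with Python 3.11.15, numpy 2.4.6 and pandas 2.3.3; the ratios were tested on simulated data. Near-identical copies were searched with blastn 2.17.0 (at least 95% identity over 100 bases) and by exact 30-base windows. Promoters are RefSeq's. Genes named were the catalytic subunits and their counterparts, the activators, PSMD14, and the 2 highest and 2 lowest subunits and pathway genes per comparison; others were chosen after their values were seen. The members and lists were chosen with earlier results of these data known.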

Additional observations from a re-analysis of the deposited data

How the results depend on the processing

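With 1 library per group, a list median was counted as changed when it moved by more than 0.1 on the log2 scale. Medians are given in the order input PRMT1 label, input PRMT4 label, footprints PRMT1 label, translation efficiency PRMT4 label. Without centring they were -0.23, -0.49, -0.32 and 0.54, and with no filter on low values, which also moves the centre, -0.22, -0.44, -0.31 and 0.47. A minimum of 20 TPM put the PRMT4 label input at -0.015 and DMSO translation efficiency at 0.10; no filter put the latter at 0.62, coding length at 0.26 and rescaling to the protein-coding total at -0.10, a change of sign. Rescaling put footprints of the PRMT1 label at -0.064. Pooling both labels put translation efficiency at 0.049, against -0.09 and 0.17. Footprints of the PRMT4 label stayed within 0.1 in all settings run, as did every median with a pseudocount of 0.1. Without genes that share coding windows every median run also did. That setting was chosen after seeing the data and was not run for translation efficiency in DMSO. Counts past the threshold of 0.32 are over 42 genes with no filter, 37 at 20 TPM and 38 otherwise. The share of all genes past it was not computed for the changed settings. Without centring, 85.7% of tested genes were below DMSO in the input of the PRMT4 label. Subunits past the threshold in the input of the PRMT1 label numbered 1, and 2 with a pseudocount of 0.1, 8 with no filter, 0 at 20 TPM and 10 without centring. In the input of the PRMT4 label 7 became 31 with no filter, 4 at 20 TPM and 32 without centring. In footprints of the PRMT1 label 8 became 19, 5 and 18, and 5 after rescaling. In translation efficiency of the PRMT4 label 8 became 32 with no filter and 32 without centring. PSMD9 there changed from -0.35 to 0.018 without centring. Leaving out the centring, leaving out or raising the filter, and rescaling move the centre by construction. The minimum of 20 TPM also left out PSME4, the gene called in the input of the PRMT1 label. The cause of the other changes was not tested. No paired analysis was possible because each group has 1 library.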
